A study of Mus musculus with 4 samples.

Results

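The mouse genes named Zfp900 to Zfp999 belong to the zinc finger genes that expanded in rodents, and 63 protein-coding genes carry such a name among the 47885 rows of the gene count table. Members were taken by name alone, as protein-coding genes of the GENCODE M21 annotation whose symbol is Zfp9 followed by another pair of digits. The rule uses no measured value, but this set of genes was chosen with earlier results of these data known. One further gene with such a name, Zfp939, is annotated as a transcribed unprocessed pseudogene and was left out. It had 24, 2, 10 and 10 counts in WT 1, WT 2, KO 1 and KO 2. Of the 63 members, 58 passed the filter on low counts and were tested among 15563 genes. The members lie on 12 chromosomes, with 16 on chromosome 4, 13 on chromosome 17, 11 on chromosome 2, 8 on chromosome 7 and 5 on chromosome 8.

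The libraries came from whole single mouse embryos at embryonic day 5.5 on a C57BL/6 background. They were Mettl14+/+ embryos, labelled WT 1 and WT 2, and Mettl14-/- embryos, labelled KO 1 and KO 2, with no other treatment given in the labels. Polyadenylated RNA was amplified by a SMART-Seq v4 protocol, which does not mark the strand, and sequenced as paired 150-base reads. METTL14 is the RNA-binding partner of METTL3 in the nuclear complex that writes N6-methyladenosine (m6A), the most common internal modification of messenger RNA. Each embryo was classed after amplification by a quantitative PCR for Mettl14 on its own cDNA, so the level of Mettl14 is not independent of the classes. Nothing in the labels ties the replicate numbers to a litter or a day.

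Most of these proteins are of the KRAB zinc finger type. A KRAB box near the amino end binds the co-repressor TRIM28 (KAP1), which brings the histone methyltransferase SETDB1, HP1 proteins and other silencing factors, and a run of C2H2 zinc fingers near the carboxyl end reads the DNA sequence. Many KRAB zinc finger proteins are known to silence transposable elements in the early embryo, and their genes sit in clusters of near copies that differ between mammalian lineages. Deposition of m6A is known to favour long internal exons and the last exon around the stop codon, at a short motif of which GGACT is the best known form.

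The 4 libraries held 16108062, 20121289, 20248636 and 28698541 counts for WT 1, WT 2, KO 1 and KO 2, and 21488, 19603, 21250 and 18346 genes with a count. KO 2 was thus the deepest library and had the fewest genes detected. Levels below are counts per 1000000 counts (CPM), on library sizes scaled by the TMM method of edgeR, on which a single count was worth 0.0359 to 0.0590 CPM. Mettl14 (ENSMUSG00000028114) had 34.0 CPM in WT 1, 31.6 in WT 2, 4.63 in KO 1 and 8.04 in KO 2. Its log2 fold change was -2.37 (SE 0.45), with an adjusted p of 0.274 in edgeR's quasi-likelihood test. Epiblast markers were present in every embryo, with a summed level of 2206, 2081, 1522 and 2433 CPM over 5 genes. The 6 visceral endoderm markers summed to 648 and 1731 CPM in WT and 245 and 312 CPM in KO, and all of them had lower values in KO. The 4 markers of trophoblast giant cells and ectoplacental cone summed to 355 and 549 CPM in WT and 1753 and 1006 CPM in KO, all higher in KO. The 5 extraembryonic ectoderm markers summed to 509 to 750 CPM, the 5 of maternal decidua to 15.2 and 23.3 CPM in WT and 2.55 and 1.18 CPM in KO, and the 4 of blood to 0.590 to 2.26 CPM, with Hbb-bs at 0 in every library. The part of these differences in make-up in the values below was not tested, and in whole embryos fewer cells of a type and less RNA per cell cannot be told apart.

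The promoters of the members were set side by side because neighbouring members can be recent copies of each other. RefSeq promoter windows on GRCm38.p6, from 250 bases before to 50 bases after the annotated start, matched 53 of the 63 members by symbol. The 6 windows below belong to 3 of the members with the highest levels (Zfp979, Zfp980, Zfp981), to the 2 with the smallest p among the lower values in KO (Zfp946, Zfp937) and to the 1 with the smallest p among the higher values (Zfp954). They are written 5′ to 3′ along the gene, and capitals mark CCAAT, the letters of the CCAAT box, or its reverse complement ATTGG.
Zfp979: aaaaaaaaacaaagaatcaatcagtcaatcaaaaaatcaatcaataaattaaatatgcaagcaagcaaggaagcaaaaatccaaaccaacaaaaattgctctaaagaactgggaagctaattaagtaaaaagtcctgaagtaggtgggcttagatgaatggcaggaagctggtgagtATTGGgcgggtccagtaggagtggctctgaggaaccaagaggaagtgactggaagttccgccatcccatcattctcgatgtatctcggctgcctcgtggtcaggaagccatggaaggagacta
Zfp980: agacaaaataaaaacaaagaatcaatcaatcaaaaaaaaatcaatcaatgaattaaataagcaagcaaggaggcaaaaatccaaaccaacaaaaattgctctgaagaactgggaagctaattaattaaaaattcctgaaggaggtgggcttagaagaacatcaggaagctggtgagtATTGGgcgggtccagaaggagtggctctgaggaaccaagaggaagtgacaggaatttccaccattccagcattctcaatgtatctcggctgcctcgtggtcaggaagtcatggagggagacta
Zfp981: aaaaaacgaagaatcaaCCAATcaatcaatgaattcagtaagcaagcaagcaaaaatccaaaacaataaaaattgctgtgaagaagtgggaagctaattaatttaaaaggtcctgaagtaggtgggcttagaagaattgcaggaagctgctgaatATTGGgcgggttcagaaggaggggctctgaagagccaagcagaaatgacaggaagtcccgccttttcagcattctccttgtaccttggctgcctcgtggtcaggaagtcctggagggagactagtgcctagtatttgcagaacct
Zfp937: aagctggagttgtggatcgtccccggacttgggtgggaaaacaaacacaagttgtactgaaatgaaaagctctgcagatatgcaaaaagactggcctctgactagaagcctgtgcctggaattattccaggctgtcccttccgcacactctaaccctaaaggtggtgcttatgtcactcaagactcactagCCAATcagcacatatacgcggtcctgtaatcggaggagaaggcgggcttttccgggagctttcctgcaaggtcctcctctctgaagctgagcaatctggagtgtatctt
Zfp946: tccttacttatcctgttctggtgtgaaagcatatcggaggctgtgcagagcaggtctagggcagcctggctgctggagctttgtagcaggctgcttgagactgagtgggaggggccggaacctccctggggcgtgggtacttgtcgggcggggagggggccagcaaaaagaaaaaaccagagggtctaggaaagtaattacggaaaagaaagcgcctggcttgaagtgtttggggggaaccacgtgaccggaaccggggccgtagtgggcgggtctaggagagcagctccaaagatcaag
Zfp954: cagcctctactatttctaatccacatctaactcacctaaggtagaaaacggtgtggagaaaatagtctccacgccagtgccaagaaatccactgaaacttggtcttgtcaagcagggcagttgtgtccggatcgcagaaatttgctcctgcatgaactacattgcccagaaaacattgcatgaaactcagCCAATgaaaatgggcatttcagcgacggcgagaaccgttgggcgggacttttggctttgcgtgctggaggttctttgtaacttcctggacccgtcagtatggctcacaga

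The Zfp979 window is chr4:147642459-147642758 on the minus strand, and those of Zfp980 and Zfp981 are chr4:145670447-145670746 and chr4:146514670-146514969 on the plus strand. The Zfp937 and Zfp946 windows are chr2:150217849-150218148 and chr17:22423952-22424251 on the plus strand, and that of Zfp954 is chr7:7121427-7121726 on the minus strand. The RefSeq start of Zfp981 lies 12893 bases from its GENCODE start, while those of the other 5 genes lie within 26 bases of it. Zfp979 and Zfp980 of the same cluster had 92.5% identical letters over 295 aligned positions. Zfp981 matched Zfp979 at 86.6% and Zfp980 at 87.7% of 277 aligned positions.

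These 3 windows hold the same 21-base stretch, GGCTGCCTCGTGGTCAGGAAG, near their end and so close to the transcription start, where it stands in lower case. Of 32851 RefSeq promoter windows, 7 held it, namely those of Zfp979, Zfp980, Zfp981, Zfp982 and Zfp985 and of the neighbouring zinc finger genes Rex2 and Zfp600, all on chromosome 4. The stretch was picked after the sequences were seen. Of the 5 members with the highest levels, 4 held it, but these include the 3 windows shown above, where its presence was known beforehand. The fifth, Zfp992, had no entry in the promoter table. Of the members next in level, Zfp958, Zfp936, Zfp988, Zfp977 and Zfp948 did not hold it. Zfp982 holds it as well and stood much lower, at 7.84, 6.63, 7.84 and 1.29 CPM in WT 1, WT 2, KO 1 and KO 2.

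CCAAT, the core of the box bound by the NF-Y complex, was found on either strand in 40 of the 53 member windows (75.5%), against 37.4% of all 32851 windows of that length, 39.0% of those of tested protein-coding genes and 44.1% of those of the other numbered Zfp genes. GGGCGG, the core of the GC box bound by Sp1-type factors, was found on either strand in 34.0% of member windows, 35.7% of all windows, 65.0% of those of tested protein-coding genes and 46.6% of those of the other numbered Zfp genes. TATAAA, searched on both strands, was found in 0 of 53 member windows, 13.6% of all windows, 6.60% of those of tested protein-coding genes and 6.88% of those of the other numbered Zfp genes. The longer CCGCCCAAT (other strand ATTGGGCGG), in which the CCAAT and GGGCGG letters overlap, was chosen after the sequences were seen and was found in 9 of 53 member windows (17.0%), against 0.256% of all, 0.550% of those of tested protein-coding genes and 1.62% of those of the other numbered Zfp genes. Its windows were those of Zfp979, Zfp980, Zfp981, Zfp982, Zfp984, Zfp985 and Zfp988 on chromosome 4 and of Zfp947 and Zfp994 on chromosome 17. The shares of all these motifs count neighbouring near copies as separate windows. CCGCCCAAT can be read above in the windows of Zfp979, Zfp980 and Zfp981. The 37 tested members with CCAAT had a median log2 fold change of -0.51, and the 12 without it -0.38, a gap that was not tested.

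The transcripts of the members were alike in build. The median member had 4 exons, against 7 for protein-coding genes, a last exon of 2176 bases, against 1127, and 87.0% of its coding sequence in that last exon, against 15.6%. The other numbered Zfp genes had medians of 5 exons, a last exon of 2649 bases and 84.0% of the coding sequence in it. A long last exon that holds most of the coding sequence was thus not particular to the members. In 62 of 63 members at least 50% of the coding sequence lay in the last exon, against 74.8% of the other numbered Zfp genes and 24.9% of protein-coding genes. Translated coding sequences held a median of 11 C2H2 fingers (0 to 21), with 3 or more in 57 members, and a KRAB-type pattern in 57 members. Members without that pattern were Zfp956, Zfp957, Zfp968, Zfp972, Zfp974 and Zfp986, of which Zfp974 had the most fingers, 21. The coding sequences used for Zfp986, Zfp968 and Zfp972 were short, at 63, 414 and 417 bases, and held 0 fingers. For these genes the lack of a pattern may describe the annotated transcript only. The transcripts were also poor in G and C, with a median GC content of 38.6% against 49.4% for protein-coding genes.

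GGACT was scarce in them, at a median of 0.25 per kilobase of transcript against 1.02 for protein-coding genes. In 43 of 63 members (68.3%) the last exon held no GGACT, against 35.9% of protein-coding genes and 19.5% of the other numbered Zfp genes, although last exons of members were long. Only the strand of the transcript was searched. The 38 tested members with no GGACT in the last exon had a median log2 fold change of -0.49 and the 20 with at least one -0.40. A match is a string of letters and not a measured m6A site, which no value used here reports.

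Recent copies share sequence, and the sources used here do not give the counting rule for reads that fit several genes. Each 150-base window of a single coding transcript of each member was therefore looked for in the transcripts of all other genes, and 37 members shared at least one. Shared windows made up over 50% for 11 members, namely Zfp935, Zfp960, Zfp965, Zfp966, Zfp967, Zfp968, Zfp969, Zfp973, Zfp987, Zfp991 and Zfp993, and their values are uncertain. The 3 members at 0 in every library, Zfp965, Zfp967 and Zfp969 on chromosome 2, had all of their windows in another gene, so a count of 0 there may not describe their expression. For a gene at 0 in all 4 libraries, 3 counts allow up to 0.0354 CPM over the libraries together. The other untested members were Zfp973, with 12, 0, 3 and 3 counts in WT 1, WT 2, KO 1 and KO 2 and 73.8% shared windows, and Zfp957, with a single count in KO 2 and no shared window. Exons of 12 members overlap those of another gene, and reads from the overlaps cannot be assigned with certainty. On the opposite strand these are Zfp961 (181 bases, Cyp4f18), Zfp974 (465 bases, Gm26891) and Zfp943 (77 bases, Gm9772). On the same strand, among members with values printed below, they are Zfp956 (290 bases, Zfp783), Zfp941 (251 bases, Gm45785), Zfp963 (937 bases, Gm20422) and Zfp983 (233 bases, CAAA01141682.1).

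Levels spanned more than 2 orders of magnitude per kilobase of exon, and the top of the order was held by the distal cluster of chromosome 4. Zfp979 (ENSMUSG00000066000, chr4:147611937-147642513) was the most abundant member, at 47.4, 33.3, 44.5 and 35.8 CPM per kilobase in WT 1, WT 2, KO 1 and KO 2. Zfp985, at a mean of 23.9 CPM per kilobase, Zfp992 at 22.1, Zfp981 at 17.9 and Zfp980 at 17.1, all from the same cluster, came next. Zfp958 (chromosome 8, 16.9), Zfp936 (chromosome 7, 15.9), Zfp988 (chromosome 4, 15.8), Zfp977 (chromosome 7, 14.96) and Zfp948 (chromosome 17, 14.1) completed the 10 highest by mean CPM per kilobase. Of those on chromosome 4, shared windows made up 10.9% for Zfp979, 21.3% for Zfp992, 30.8% for Zfp980 and 28.7% for Zfp988. They made up 2.87% for Zfp981 and 0% for Zfp985, so the order within this cluster is uncertain. The lowest tested member, at a mean of 0.148 CPM per kilobase, was Zfp983 on chromosome 17. In the plot of levels by gene, the embryos of the groups overlap for all 10 of these members. The 5 genes from Zfp958 to Zfp948 in this order overlap in their single-embryo values, so their rank among themselves is not resolved.

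**Figure D1:**
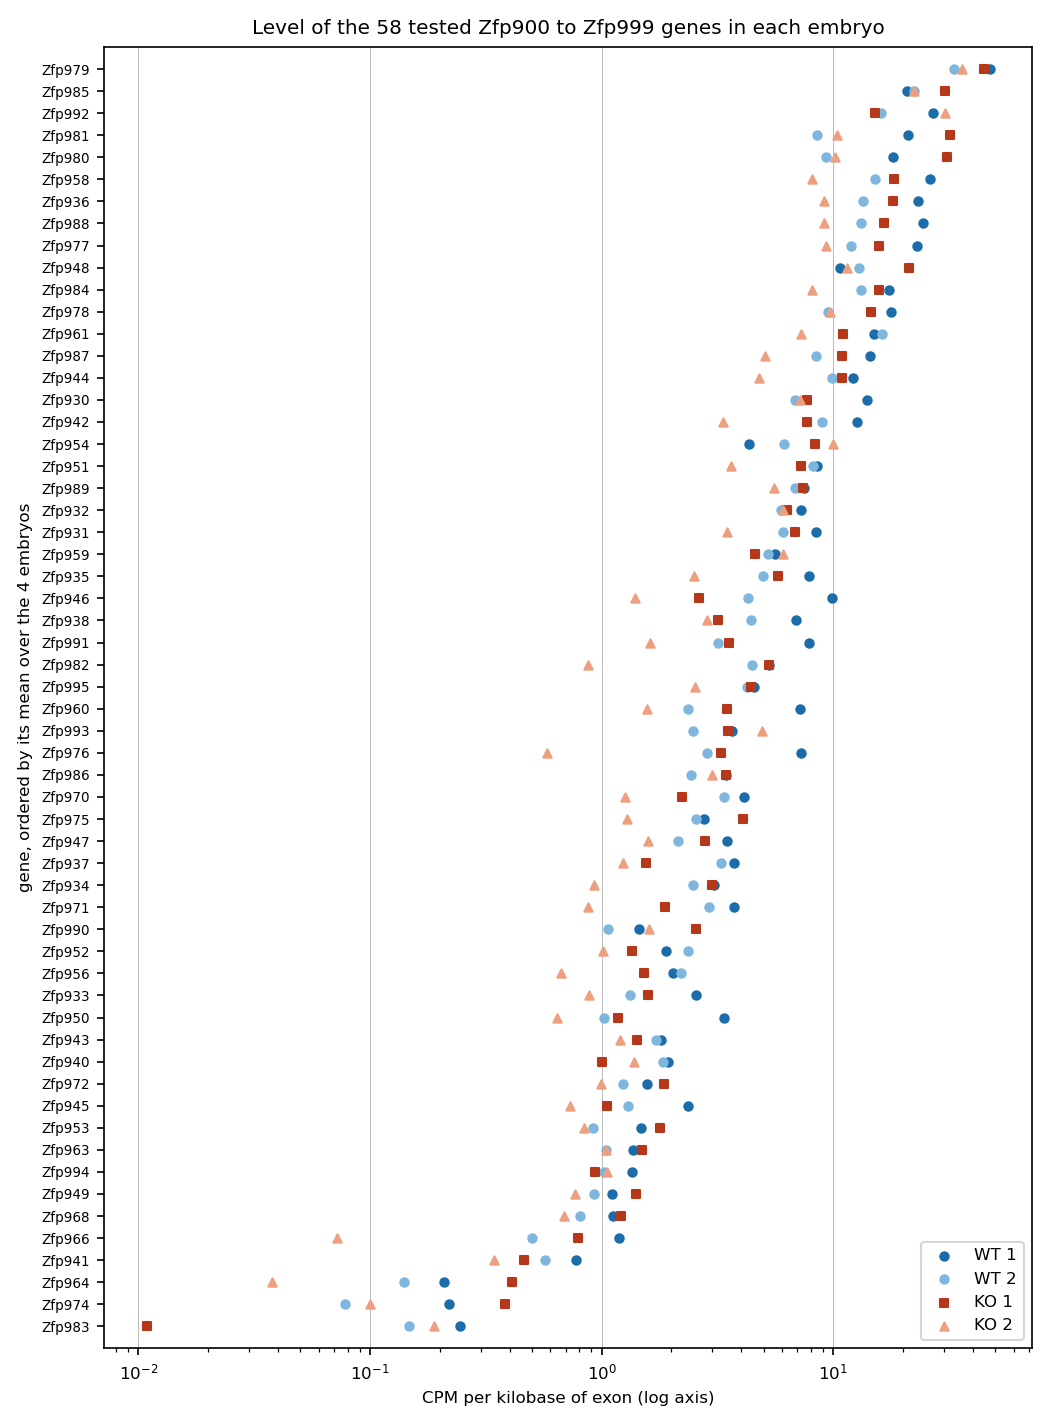
Level of each of the 58 tested members in each embryo, as CPM per kilobase of exon on a log axis, with genes ordered by their mean over the 4 embryos. Circles are WT 1 and WT 2, the square is KO 1 and the triangle KO 2. Zfp979 leads at 33.3 to 47.4 CPM per kilobase, and the triangle of KO 2 is the lowest point in 40 of the 58 rows.

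Of the 58 tested members, 42 (72.4%) had a lower value in the KO than in the WT embryos and 16 a higher one, where 52.3% of all tested genes were lower, but none passed the test. The median of their log2 fold changes stood at -0.48 (range -1.81 to 0.81), against -0.03 over all tested genes. That median rested on both a WT and a KO embryo, being -0.07 without WT 1 and -0.08 without KO 2, and -0.66 without WT 2 and -0.88 without KO 1. Since the set was chosen with earlier results of these data known, these shares and medians are description only.

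By the test of single genes, no member passed the threshold of 0.05 on the adjusted p in either direction (0 higher and 0 lower of 58), and neither did any of the 15563 tested genes (0% called in each direction, edgeR's quasi-likelihood test with Benjamini-Hochberg adjustment). The smallest adjusted p of a member was 0.488. At an unadjusted p under 0.05, 0 members had higher and 2 had lower values in KO, Zfp946 and Zfp937, where 4.74% and 3.08% of all tested genes did so. In DESeq2, 7 members had lower values at that unadjusted level (3.55% of all tested genes) and in limma-voom 6 (3.52%). Neither tool called a member after adjustment, where DESeq2 called 0.906% of genes higher and 0.572% lower and limma-voom 0%. With no filter on low counts 7 members had lower values at the unadjusted level (2.92% of genes) and 1 was called lower (0.398%). Without KO 1 these were 15 (8.14%) and 1 called lower (1.25%).

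The members differed within a genotype by as much as between the genotypes. The mean log2 CPM of the 58 tested members was 3.95 in WT 1, 3.42 in WT 2, 3.62 in KO 1 and 2.84 in KO 2. KO 1 thus lay between the WT embryos, and the groups overlapped. The members summed to 1650 CPM in WT 1, 1117 in WT 2, 1415 in KO 1 and 925 in KO 2. WT 1 exceeded WT 2 in 52 of 58 members (51.2% of all tested genes) and KO 1 exceeded KO 2 in 51 of 58 (53% of all tested genes). The median log2 difference was 0.47 between the WT embryos and 0.83 between the KO embryos. KO 1 differed by a median of -0.33 from WT 1 and 0.24 from WT 2, while KO 2 differed by -1.09 and -0.57.

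The same order returned gene by gene. WT 1 gave the highest value of 37 of 58 members (63.8%), against 27.1% of all tested genes, and KO 2 the lowest value of 40 (69.0%), against 33.6%. Both KO embryos lay below both WT embryos in 14 of 58 members, against 18.8% of all tested genes. They lay above in 2, Zfp954 and Zfp990, against 19.4% of all tested genes. In the colour map of the deviations, the columns of WT 1 and KO 2 run in opposite colours down most of the chromosomes.

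**Figure D2:**
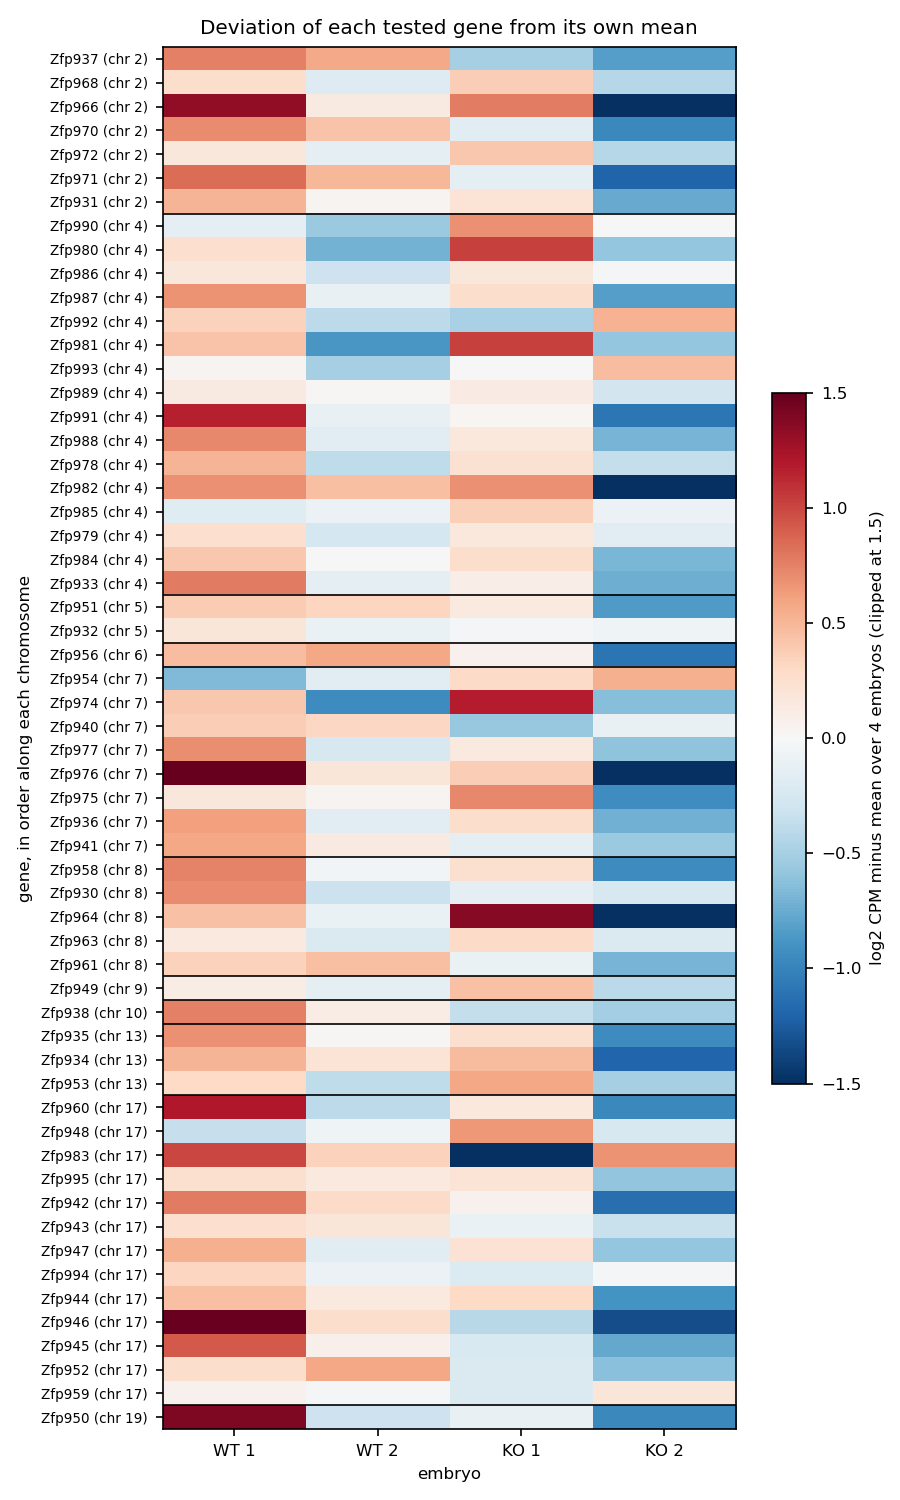
Deviation of each tested member from its own mean over the 4 embryos, in log2 CPM, with embryos as columns and genes in order along each chromosome. Red is above and blue below the gene's mean, and colours are clipped at 1.5. WT 1 holds the highest value in 37 rows and KO 2 the lowest in 40.

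Among members with lower values in KO, Zfp946 (ENSMUSG00000071266, chr17:22424222-22456689), a KRAB gene with 11 fingers, had the smallest p. It stood at 34.7 and 14.96 CPM in WT and 9.25 and 4.88 CPM in KO. Both KO embryos were below both WT embryos, but the WT embryos differed from each other by more than WT 2 differed from KO 1. Its log2 fold change was -1.81 (SE 0.56), with an edgeR p of 0.0119 and an adjusted p of 0.488. With no filter on low counts the adjusted p was 0.0437 at a log2 fold change of -1.80, the only setting that put it past the threshold, and without WT 1 the log2 fold change was -1.08.

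Zfp937 (ENSMUSG00000060336, chr2:150218073-150240725), with 14 fingers, had 10.4 and 9.19 CPM in WT and 4.34 and 3.44 CPM in KO. The groups did not overlap, each pair of embryos lay close together, and its log2 fold change was -1.33 (SE 0.51, edgeR p 0.0299, adjusted p 0.569). Leaving out any single embryo kept it between -1.16 and -1.43. It shares 4.98% of its windows with Zfp442.

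Of the members given in full, another 5 had KO values wholly below the WT values. Zfp961 on chromosome 8 stood at 65.0 and 70.2 CPM in WT and 47.6 and 31.5 CPM in KO, Zfp942 on chromosome 17 at 66.3 and 47.0 against 40.3 and 17.5 CPM, and Zfp945 on chromosome 17 at 23.9 and 13.3 against 10.7 and 7.39 CPM. Their log2 fold changes were -0.77, -0.97 and -1.04, with adjusted p of 0.679, 0.697 and 0.679 in edgeR. Zfp970 and Zfp971, both on chromosome 2, had 8.96 and 7.32 CPM against 4.82 and 2.73 CPM, and 7.96 and 6.25 CPM against 4.01 and 1.87 CPM. Their log2 fold changes were -1.11 and -1.28, and both share windows with Gm14288 (6.55% and 6.72%). Zfp950 on chromosome 19 had 35.7 and 10.8 CPM in WT and 12.4 and 6.82 CPM in KO, so WT 2 lay below KO 1. Its log2 fold change of -1.27 was -0.17 without WT 1.

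Among members with higher values in KO, Zfp954 (ENSMUSG00000062116, chr7:7114690-7121488) had the smallest p. It stood at 10.3 and 14.6 CPM in WT and 20.0 and 23.8 CPM in KO, without overlap. The log2 fold change was 0.81 (SE 0.42, edgeR p 0.0894, adjusted p 0.735), and it was 0.60 to 1.09 with any single embryo left out. Zfp954 was also one of the members richest in G and C, at 50.1% of the transcript. Zfp990 on chromosome 4 had 5.07 and 3.74 CPM in WT and 8.97 and 5.60 CPM in KO, a log2 fold change of 0.72 (SE 0.56).

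The other members named for higher values overlapped between the groups. Zfp948 had 28.3 and 34.3 CPM in WT and 56.3 and 30.4 CPM in KO, and Zfp985 had 59.9 and 63.9 against 87.1 and 63.8 CPM. In both, KO 1 alone stood above the rest, and the log2 fold changes were 0.47 and 0.29. Zfp980, at 72.5 and 37.3 CPM in WT and 124 and 40.8 CPM in KO, and Zfp981, at 66.3 and 26.8 against 101 and 32.8 CPM, followed each other across the 4 embryos. Their log2 fold changes of 0.58 and 0.52 turned to -0.34 and -0.42 without KO 1. Zfp974 had 1.65 and 0.588 CPM in WT and 2.88 and 0.753 CPM in KO, and its log2 fold change of 0.69 (SE 1.06) was -0.48 without KO 1. Zfp993, with 4.66 and 3.15 CPM in WT and 4.49 and 6.24 CPM in KO (log2 fold change 0.46, SE 0.59), shares 70.6% of its windows with Zfp991.

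The other members among the 10 most abundant had overlapping groups as well. Zfp979, at 195 and 137 CPM in WT and 183 and 147 CPM in KO, had a log2 fold change of -0.01 (SE 0.33, adjusted p 0.999 in edgeR). Zfp992, at 122 and 73.3 against 68.5 and 138 CPM, had 0.08 (SE 0.44), with KO 2 its highest embryo, contrary to most members. Zfp958, Zfp936, Zfp988 and Zfp977 had negative log2 fold changes of -0.64, -0.43, -0.55 and -0.48, against SEs of 0.45 to 0.49. In all 4 the order of embryos was WT 1, KO 1, WT 2 and KO 2 from high to low, as for Zfp958 at 61.6, 43.4, 35.8 and 19.1 CPM. Zfp936 had 75.6 and 43.9 CPM in WT and 59.0 and 29.8 CPM in KO, Zfp988 68.4 and 37.0 against 46.3 and 25.6 CPM, and Zfp977 32.6 and 17.0 against 22.4 and 13.2 CPM.

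By position, chromosome 17 held the most members with lower values, 12 of 13, with a median log2 fold change of -0.49. Zfp948 was the exception there. On chromosome 2, 6 of 7 tested members were lower (median -0.97), on chromosome 7 5 of 8 (median -0.45) and on chromosome 8 3 of 5 (median -0.47). The distal cluster of chromosome 4 was divided, with 9 lower and 7 higher of 16 and a median of -0.07. Leaving out WT 1 gave medians of -0.25, 0.26, 0.04, 0.15 and -0.34 for chromosomes 2, 4, 7, 8 and 17, and leaving out KO 2 gave -0.41, 0.12, -0.07, -0.15 and -0.33. Without KO 1 they were -1.46, -0.38, -0.85, -1.02 and -0.74, and without WT 2 -1.33, -0.23, -0.72, -0.71 and -0.66. The median of each of these chromosomes thus moved with single embryos, and that of chromosomes 4, 7 and 8 changed sign. Clusters differ in shared sequence as well as in position, since all 11 members on chromosome 2 and 11 of 16 on chromosome 4 share windows. The difference between chromosomes was not tested.

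The members were also divided by shared sequence. The 35 tested members with under 5% shared windows had a median log2 fold change of -0.49, with 27 lower, and the 22 with more had -0.15, with 15 lower. The medians were -0.24 and 0.07 without WT 1, -0.20 and -0.05 without KO 2, -0.69 and -0.53 without WT 2, and -0.90 and -0.83 without KO 1, so the gap also moved with single embryos. It was not tested. Without windows to compare, Zfp986, whose annotated transcript is shorter than the window, is in neither group.

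GC content moved with the same embryos. When tested protein-coding genes were split into 8 equal groups by GC content, the lowest group (31.9% to 42.9% GC) deviated from the genes' own means by a median of 0.23 log2 CPM in WT 1, -0.04 in WT 2, 0.17 in KO 1 and -0.33 in KO 2. The highest group (58.0% to 72.9% GC) deviated by -0.23 in WT 1, -0.04 in WT 2, 0.01 in KO 1 and 0.36 in KO 2. Of the 58 tested members, 51 fell in the lowest group. Their median log2 fold change there was -0.48, against -0.16 for the 1514 genes of that group with no Zfp number. Those other genes ordered the embryos as the members did, KO 2 differing by a median of -0.52 from WT 1 and -0.30 from WT 2 and KO 1 by -0.07 and 0.20. The members deviated by a median of 0.45 in WT 1, -0.08 in WT 2, 0.17 in KO 1 and -0.61 in KO 2.

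**Figure D3:**
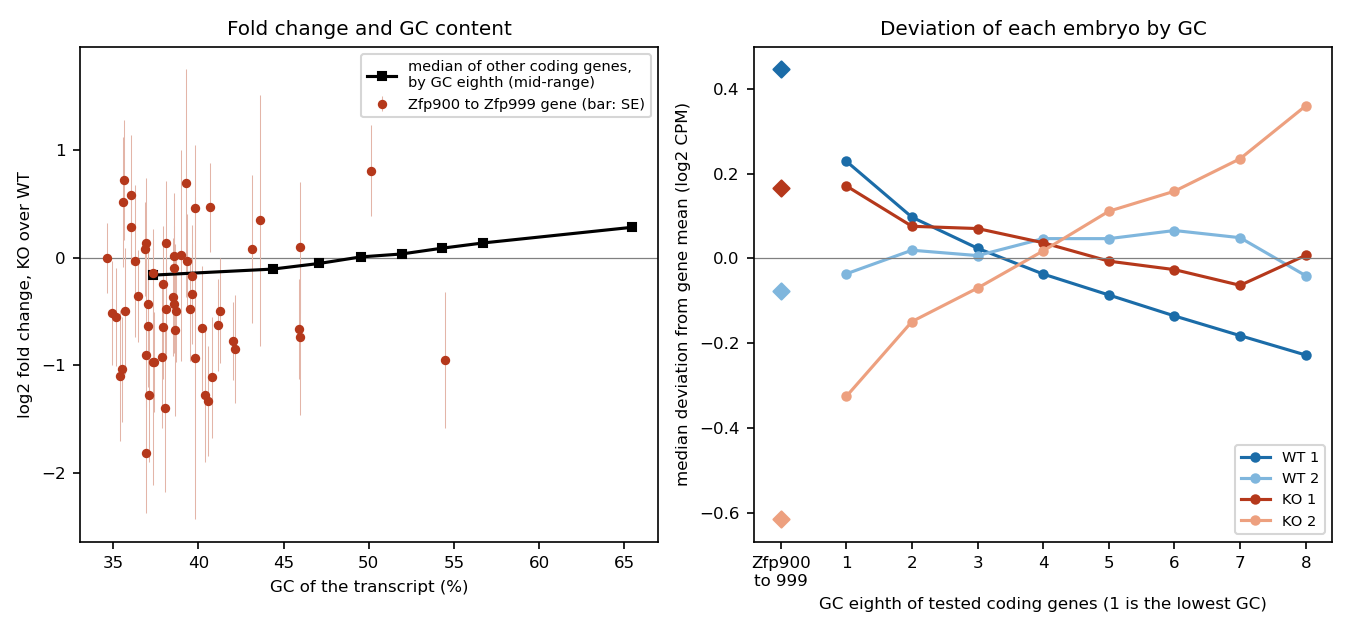
Left, log2 fold change (KO over WT) of each tested member against the GC content of its transcript, with its SE as a bar, and the median of other protein-coding genes in each of 8 GC groups as black squares. Right, median deviation from the gene's own mean in each embryo, for the tested members (diamonds) and for the 8 GC groups of all tested protein-coding genes (circles), in log2 CPM. In the right panel WT 1 runs from 0.23 to -0.23 and KO 2 from -0.33 to 0.36 with rising GC, and the members lie beyond the lowest GC group in both.

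Compared in narrow steps of GC content, the members' values lay below those of genes with no Zfp number in each of these 4 steps. At 34% to 36% GC the medians were -0.51 for 8 members and -0.35 for 48 other genes, and at 36% to 38% they were -0.43 for 17 members and -0.22 for 125. At 38% to 40% they were -0.33 for 17 and -0.18 for 330, and at 40% to 42% -0.66 for 7 and -0.17 for 632. Other numbered Zfp genes in the same steps had medians of -0.79 (2 genes), -0.70 (13 genes), -0.20 (33 genes) and -0.23 (32 genes), so below 38% GC their medians were lower than the members' and above it higher. These gaps were not tested. The members richer in GC than the lowest group went both ways, from Zfp956 (54.5% GC, log2 fold change -0.95), Zfp941 (45.9%, -0.74) and Zfp940 (45.9%, -0.66) to Zfp963 (43.1%, 0.08), Zfp949 (45.9%, 0.10), Zfp964 (43.6%, 0.35) and Zfp954 (50.1%, 0.81).

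With a smooth trend of each library on GC content removed, an alternative chosen after seeing the data, the members' median log2 fold change was -0.02, with 28 higher and 30 lower (51.7% of all tested genes lower). With trends on GC content and exon length removed it was also -0.02, with 27 higher and 31 lower (51.6% of all tested genes lower), and no member passed the threshold. At an unadjusted p under 0.05 in edgeR, 3 members then had higher values (5.25% of all tested genes), Zfp980, Zfp981 and Zfp990, and 2 had lower values (4%), Zfp946 and Zfp937. The main test had given 0 higher and 2 lower. The trends were fitted over all tested genes with a known GC content, non-coding ones included. With them removed, the members' median lay near that of all tested genes, but in the steps it lay below that of other coding genes. The comparisons thus differ, and why they do was not tested. With both trends removed, the 35 members with under 5% shared windows had a median of -0.23, with 24 lower and 11 higher. The 22 with more shared windows had a median of 0.14, with 7 lower and 15 higher, so the median near 0 pools groups with medians of opposite sign. This gap was not tested. Shared windows also cannot be fully told apart from position, as 11 of 16 members on chromosome 4 share them. On the second of these scales chromosome 4 had 13 of 16 members higher (median 0.38) and chromosome 17 had 10 of 13 lower (median -0.23). Zfp946 and Zfp937 kept log2 fold changes of -1.36 and -1.10, with adjusted p of 0.357 and 0.528 in edgeR. Zfp979 moved from -0.01 to 0.64 and Zfp988 from -0.55 to 0.00088, so their direction depended on this setting. Zfp980 moved from 0.58 to 0.96, Zfp981 from 0.52 to 0.97, Zfp990 from 0.72 to 1.23, Zfp985 from 0.29 to 0.75, Zfp993 from 0.46 to 0.90 and Zfp992 from 0.08 to 0.78, all on chromosome 4. Zfp945 moved from -1.04 to -0.46, Zfp950 from -1.27 to -0.61, Zfp958 from -0.64 to -0.34, Zfp936 from -0.43 to -0.12 and Zfp977 from -0.48 to -0.21. These members moved by over 1.5 times, and none passed the threshold on either scale. The median of the members by setting is set beside that of the other numbered Zfp genes in the plot of settings.

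**Figure D4:**
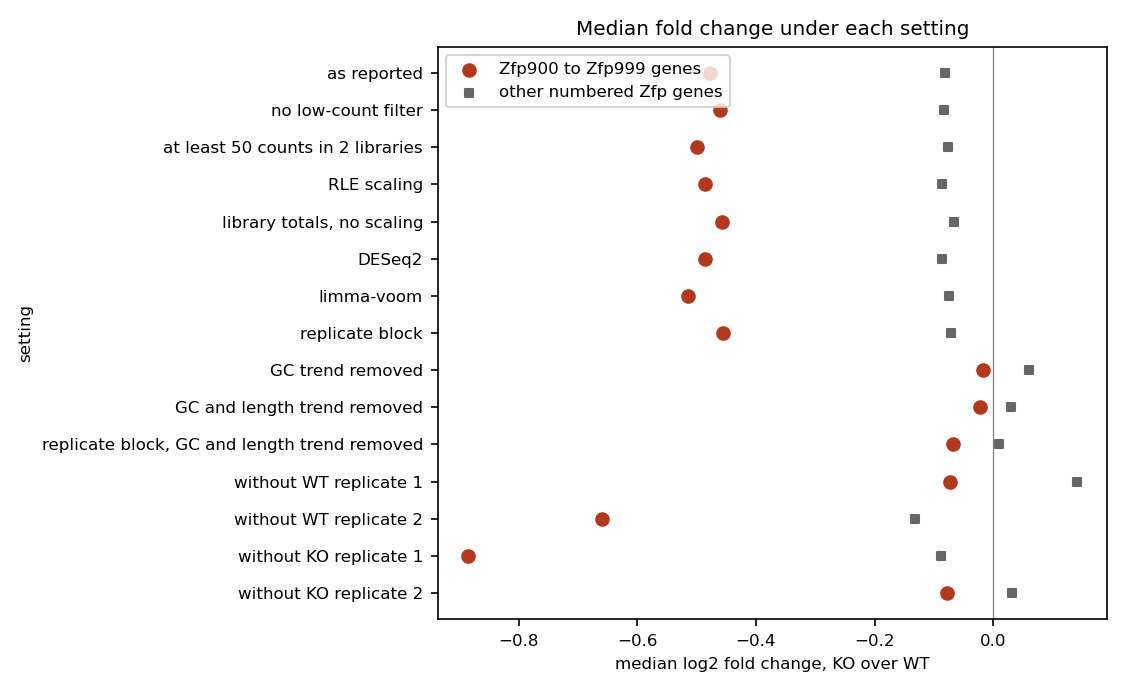
Median log2 fold change (KO over WT) under each processing setting, for the tested members (red circles) and the tested other numbered Zfp genes (grey squares), with 0 as a thin line. The members sit at -0.46 to -0.51 under other filters, scalings and tools, and nearer to 0 when a GC trend is removed or when WT 1 or KO 2 is left out.

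Other mouse genes named Zfp with another number, 302 in all, are zinc finger genes of mixed age and structure. Of the 276 tested, 148 had lower and 128 higher values in KO, where 52.3% of all tested genes were lower. Their median log2 fold change was -0.08, and none passed the threshold. At an unadjusted p under 0.05 in edgeR, 15 had lower and 9 higher values (3.08% and 4.74% of all tested genes). Their median GC content was 46.6%. The 89 of them in the lowest of the 8 GC groups had a median log2 fold change of -0.31, between that of the members there (-0.48) and that of genes with no Zfp number (-0.16). KO 2 was the lowest embryo for 38.0% of those tested and WT 1 the highest for 37.7%, shares closer to those of all tested genes than the members' shares were.

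The partners through which KRAB proteins act were examined as a list of 22 co-repressor and heterochromatin genes, all tested. Of the 22, 17 had lower values in KO (52.3% of all tested genes) and 5 higher, with a median log2 fold change of -0.26. None passed the threshold. Trim28, the common co-repressor of KRAB proteins, stood at 531 and 457 CPM in WT and 340 and 360 CPM in KO. The groups did not overlap, and the log2 fold change was -0.50 (SE 0.27, adjusted p 0.752 in edgeR). With GC and length trends removed, the log2 fold change of Trim28 was -0.81 (adjusted p 0.456 in edgeR) and the median of the list -0.13. Setdb1, the methyltransferase that TRIM28 brings, had 59.6 and 54.8 CPM in WT and 69.5 and 43.9 CPM in KO, with a log2 fold change of -0.01 (SE 0.37).

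Uhrf1, which brings the maintenance DNA methyltransferase to replicated DNA, had the smallest p of the list. It had 187 and 193 CPM in WT and 112 and 95.2 CPM in KO, a log2 fold change of -0.88 (SE 0.30, edgeR p 0.0195, adjusted p 0.524). Chd3, an ATPase of the NuRD complex, was low throughout, at 2.48 and 2.30 CPM in WT and 7.13 and 7.53 CPM in KO. Its log2 fold change was 1.62 (SE 0.57, edgeR p 0.0208, adjusted p 0.524). Daxx, a histone chaperone partner of ATRX, had 29.0 and 37.6 CPM in WT and 45.3 and 48.1 CPM in KO, a log2 fold change of 0.49. For these 3 genes, picked by p, the KO embryos did not overlap the WT embryos. Of the 22, both KO embryos lay below both WT embryos in 8 and above in 2, against 18.8% and 19.4% of all tested genes.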

How the data were processed

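The authors deposited 1 table of raw read counts per gene, 1 column per embryo. Per the submitters' processing notes, TopHat, Cufflinks and mm10 were used. Not given in the sources used here are versions, the counting program, its strand setting, its treatment of reads that fit several genes and the annotation. Of 47885 rows, 46488 carried an Ensembl identifier found in GENCODE M21 (mm10), 816 carried none and 581 were not found.

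Counts were fitted with edgeR 4.0.16 in R 4.3.3: filterByExpr (minimum count 10, total 15), TMM scaling, robust glmQLFit and glmQLFTest on KO against WT, with Benjamini-Hochberg adjustment over the 15563 genes tested and a threshold of 0.05. The SE was taken as the absolute log2 fold change over the root of F. Deviations and single-embryo differences used log2 CPM with a prior count of 2. GC content, exons, the GGACT search and the shared windows used a single protein-coding M21 transcript per gene. It was chosen by the basic tag of M21 and then by the longest coding part. Fingers and KRAB-type patterns came from simple residue patterns in its translation. The removed trends used instead the GC content of each gene's longest M21 transcript and the length of its merged exons. Promoters came from RefSeq (GRCm38.p6). Alternatives used DESeq2 1.42.0, limma 3.58.1, other filters and scalings, a replicate block, and each embryo left out. The fit was tested on simulated data. With 2 embryos a group, the p-values reflect the spread of these embryos only, and floors cover counting error only.

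The members, gene lists and marker lists were chosen with earlier results of these data known. Genes given in full were the 10 tested members with the highest mean CPM per kilobase of exon, up to 8 tested members in each direction with the smallest unadjusted p, any tested member past the threshold or at 0 in both embryos of a group (no tested member was either), and, of the co-repressor list, Trim28, Setdb1 and up to 2 in each direction by p. The members named by their GC content, overlap of exons, shared windows or lack of a test fall outside this rule and were named after their values were seen.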

Additional observations from a re-analysis of the deposited data

How the results depend on the processing

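The median log2 fold change of the members was negative in every setting, from -0.88 without KO 1 to -0.02 with a GC trend removed. With that trend removed it did not lie below the median over all tested genes (-0.017 against -0.026). With GC and length trends removed it was -0.0232 against -0.0243 over all tested genes. The count of members called higher stayed at 0 in each setting with all embryos. The count called lower was 0 except for 1 with no filter on low counts (Zfp946), where 0.398% of 25350 genes were called lower, and ranged from 0 to 1 with an embryo left out. The 1 came without KO 1 and was Zfp976, named after its values were seen, at 36.2 and 14.2 CPM in WT and 16.3 and 2.91 CPM in KO, with a log2 fold change of -3.03 and an adjusted p of 0.0240 in edgeR, against -1.40 and 0.759 with all embryos; there a single KO embryo was assumed to vary like the WT embryos. Members with lower values at an unadjusted p under 0.05 in edgeR numbered 2, but 7 with no filter, 0 to 15 with an embryo left out (the 15 without KO 1) and 11 with a replicate block (6.57% of all tested genes, against 3.08% without it). Those with higher values numbered 0, but 1 with the block, 0 to 2 with an embryo left out, 3 with a GC trend removed (1 lower), 3 with GC and length trends removed (2 lower) and 6 with the block added to these (5 lower; 7.72% of all tested genes higher and 6.93% lower).

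The labels do not tie the replicate numbers to a shared litter, and the correlation of the replicate differences of the groups over genes was 0.33; the replicate block left the median at -0.46, and -0.07 together with the GC and length trends. Mettl14 passed the threshold in DESeq2 (-2.36), with no filter (-2.36) and without KO 2 (-2.81). The median of the other numbered Zfp genes turned to 0.060 with a GC trend removed, 0.030 with GC and length trends removed and 0.0091 with the block added to these, and ranged from -0.13 to 0.14 with an embryo left out. The co-repressor list's median ranged from -0.39 to -0.036, the last without WT 1. Of 22 members given in full, 14 kept their sign in every alternative run. With an embryo left out, Zfp936 ranged from -0.92 to 0.013 and Zfp977 from -0.86 to 0.065 (both turned without WT 1), Zfp974 from -0.48 to 1.60, Zfp980 from -0.34 to 1.19 and Zfp981 from -0.42 to 1.30 (all turned without KO 1), Zfp992 from -0.50 to 0.58, Zfp979 from -0.23 to 0.28 and Setdb1 from -0.30 to 0.29. Zfp992 turned without WT 2 (-0.23) and KO 2, and Zfp979 (0.15 without KO 2) and Setdb1 (0.053) without WT 1 and KO 2. Setdb1 also turned to 0.020 with library totals. Zfp988 turned to 0.012 with GC removed, 0.00088 with length as well and 0.0011 with the block added. Zfp979 turned to 0.66, 0.64 and 0.58 under these 3, and to 0.0079 with no filter, 0.0085 with library totals, 0.0056 in limma-voom and 0.0078 with the block. Zfp974 has no value under the filter of 50 counts in 2 libraries, which it did not pass. Why these values moved was not tested. At 0.0359 to 0.0590 CPM per count, depth limits what can be said of the 5 untested members. For Zfp965, Zfp967, Zfp969 and Zfp973 the windows shared with other genes limit it as well.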
